A study of Cricetiscus sungorus with 41 samples.

Results

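Blood cells of Djungarian hamsters were compared between 2 times of day in hypothermic (HT) animals: zeitgeber time 16 (ZT16), after torpor, and zeitgeber time 7 (ZT07), during arousal from it. Zeitgeber time counts hours from lights on. The members are the 8 libraries whose labels give the condition HT with time point ZT16 (4 animals) or ZT07 (4 animals), out of 41 libraries in the deposited table. Each library came from the blood of 1 animal killed for sampling, so no animal was followed from one time to the other. All HT and NT animals were wild type (WT), acclimated to a short photoperiod, 32 ± 4 weeks old and killed with carbon dioxide, and all had shown spontaneous daily torpor, defined by the study as a body temperature below 32 °C for at least 30 minutes. HT animals had entered torpor on the sampled day and normothermic (NT) animals had not. The labelled sex was female for the 4 HT ZT16 animals, and 1 male and 3 females for HT ZT07. As background, 4 NT animals at ZT16 (4 males) and 4 NT animals at ZT07 (1 male and 3 females) were measured in the same way. Sexes were therefore unequal between the times in both conditions, and in NT animals sex and time can hardly be told apart.

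Daily torpor in this species is a spontaneous, short bout of lowered metabolism and body temperature. It falls in the light phase, when the nocturnal animal rests, and ends with active rewarming. Blood cells carry the same molecular clock as other tissues: CLOCK and ARNTL drive transcription of the PER and CRY repressors and of NR1D1 and NR1D2, which in turn hold back ARNTL. Numbers of circulating leukocytes also follow the time of day, glucocorticoids and, in hibernators, body temperature. In whole blood, fewer cells of a type and less RNA per cell cannot be told apart.

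Expression is given as CPM, the counts of a gene per 1000000 counts of the TMM-scaled library total, with haemoglobin transcripts included, and as the log2 fold change at ZT16 relative to ZT07 with its standard error (SE). Haemoglobin genes took 87.7% ± 1.07 of the counts at ZT07 and 87.5% ± 0.987 at ZT16 (SD, n = 4 each), so that the ZT16 mean minus the ZT07 mean was -0.165 percentage points (p = 0.743 in an exact permutation test, 2-sided, whose smallest possible p with 4 against 4 is 0.0286). Other genes together had 5939982 to 8962996 counts per library. The marker genes of leukocytes, platelets and red cells were present, as the tissue label has it, and of 24 heart muscle markers 3 reached a level that could be tested. Among the heart markers not tested, ACTC1 had 1048 and CKM 476 counts summed over the 8 libraries, but reached that level in too few libraries. Symbols are those of the human protein that each assembled hamster contig matched best, so contigs that share a best match, as can happen in families such as IRGM, the KLR receptors or the ribosomal proteins, were counted together and cannot be told apart. The pairwise correlation of the libraries, on log2 CPM, was 0.948 to 0.961 within a group and 0.918 to 0.938 between groups. Counts of the Y-linked gene UTY were 8, 52, 2 and 0 in HT ZT07 replicates 1 to 4 and 0, 8, 2 and 4 in HT ZT16. The library labelled male in HT ZT07 (replicate 1) was thus low in UTY and replicate 2, labelled female, was high, which goes against both labels. Other Y-linked symbols did not separate the labelled sexes. DDX3Y had 178, 240, 57 and 170 counts at ZT07 and 155, 68, 203 and 122 at ZT16. RPS4Y1 had 21, 62, 37 and 27 counts at ZT07 and 23, 73, 19 and 20 at ZT16. SRY had 0 counts in all 8 libraries. These counts therefore cannot settle the sex of an animal.

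A large part of the blood transcriptome differed between the 2 times in HT animals. Of 10835 genes tested with edgeR's quasi-likelihood test, 1721 (15.9%) passed a Benjamini-Hochberg adjusted p of 0.05. At ZT16, 819 of them (7.56% of those tested) were higher and 902 (8.32%) lower. The median log2 fold change was 0.93 among the higher and -0.75 among the lower genes, and 0.01 over all genes tested. At least 2-fold changes were seen in 349 higher and 229 lower genes. The CPM of all 4 animals of one time lay outside the range of the other time in 2369 genes (21.9%). Without HT ZT07 replicate 2, whose UTY count goes against its label, 1027 genes passed, and without both HT ZT07 replicates 1 and 2, 372 passed. The latter fit had only 2 animals at ZT07 against 4 at ZT16, and the part of this smaller group in the drop was not tested.

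The transcripts with the largest rise included several regulators of transcription. TEAD2, a transcription factor of the Hippo pathway, had 0.272, 0.197, 0.131 and 0.756 CPM at ZT07 and 1.12, 3.697, 2.28 and 2.25 CPM at ZT16 (log2 fold change 2.82 ± 0.50 (SE), edgeR adjusted p = 0.00432). ZHX2, a zinc finger and homeobox repressor, had 0.427, 0.308, 0.374 and 0.358 CPM at ZT07 and 1.61, 2.08, 1.44 and 1.89 CPM at ZT16 (log2 fold change 2.26 ± 0.26 (SE), edgeR adjusted p = 0.000577). MBD1, which binds methylated CpG sites, had 3.05, 4.04, 3.42 and 2.03 CPM at ZT07 and 15.3, 12.6, 15.4 and 15.4 CPM at ZT16 (log2 fold change 2.22 ± 0.19 (SE), edgeR adjusted p = 0.000184). No ZT16 animal overlapped with a ZT07 animal in any of these 3 genes, and the ZT07 levels of TEAD2 and ZHX2 were below 1 CPM in every animal. The zinc finger genes ZNF408 (2.19 ± 0.20) and ZNF862 (2.16 ± 0.40) rose as well. IRGM, an immunity-related GTPase, went from 1.76 to 4.33 CPM at ZT07 to 11.8 to 17.4 CPM at ZT16 (log2 fold change 2.30 ± 0.24 (SE), edgeR adjusted p = 0.000368). The other large rises were in TBKBP1 (2.14 ± 0.34), an adaptor of the kinase TBK1, C1QTNF1 (2.04 ± 0.41), a secreted protein of the C1q and TNF family, DNASE1L2 (2.01 ± 0.25), a DNase, CAPRIN2 (1.99 ± 0.28), an RNA-binding protein, and the lymphocyte genes TBX21 and CD160, described with the cytotoxic cells.

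The largest falls, in PRR23B and CPB2, brought transcripts close to absence. CPB2 encodes a carboxypeptidase that slows the dissolution of fibrin clots and is made mainly in the liver in humans. It had 84, 201, 135 and 115 counts at ZT07 (1.63, 2.48, 2.52 and 2.29 CPM) and 0, 0, 6 and 8 counts at ZT16 (0, 0, 0.0856 and 0.161 CPM), with log2 fold change -5.21 ± 0.62 (SE), edgeR adjusted p = 0.000807. PRR23B, a proline-rich protein gene, fell from 311, 81, 11 and 44 counts at ZT07 to 0, 2, 0 and 0 at ZT16. Its summed counts, scaled for depth, were 231-fold lower at ZT16 (exact 95% interval 63.7 to 1917, which covers counting error only), and HT ZT07 replicate 1 held most of them. Both transcripts were near 0 in all 4 ZT16 animals, but at ZT07 CPB2 was at a similar level in every animal and PRR23B was not. PDE1B, a phosphodiesterase activated by calcium and calmodulin, had 3.75, 5.96, 3.33 and 6.11 CPM at ZT07 and 0.434, 0.344, 0.799 and 0.161 CPM at ZT16 (log2 fold change -3.42 ± 0.38 (SE), edgeR adjusted p = 0.000492). THBD, thrombomodulin, an anticoagulant receptor for thrombin, had 5.18, 6.899, 5.98 and 6.41 CPM at ZT07 and 1.52, 1.18, 1.398 and 2.33 CPM at ZT16 (log2 fold change -1.94 ± 0.21 (SE), edgeR adjusted p = 0.000483). PTBP2, a splicing repressor best known from neurons, had the lowest p of all falls named, with 25.2, 31.7, 25.1 and 28.1 CPM at ZT07 and 7.93, 7.29, 6.85 and 7.16 CPM at ZT16 (log2 fold change -1.91 ± 0.13 (SE), edgeR adjusted p = 5.69e-05). The other large falls were in SESTD1 (-2.58 ± 0.35), GRHL1 (-2.23 ± 0.36), a grainyhead-like transcription factor, ARMCX5 (-2.04 ± 0.22), FBXO40 (-1.996 ± 0.20), an F-box protein, CALHM2 (-1.94 ± 0.21), of a family of ion channels, NR1D1, described with the clock, and OSGEPL1 (-1.88 ± 0.29), a tRNA-modifying enzyme of mitochondria.

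**Figure D1:**
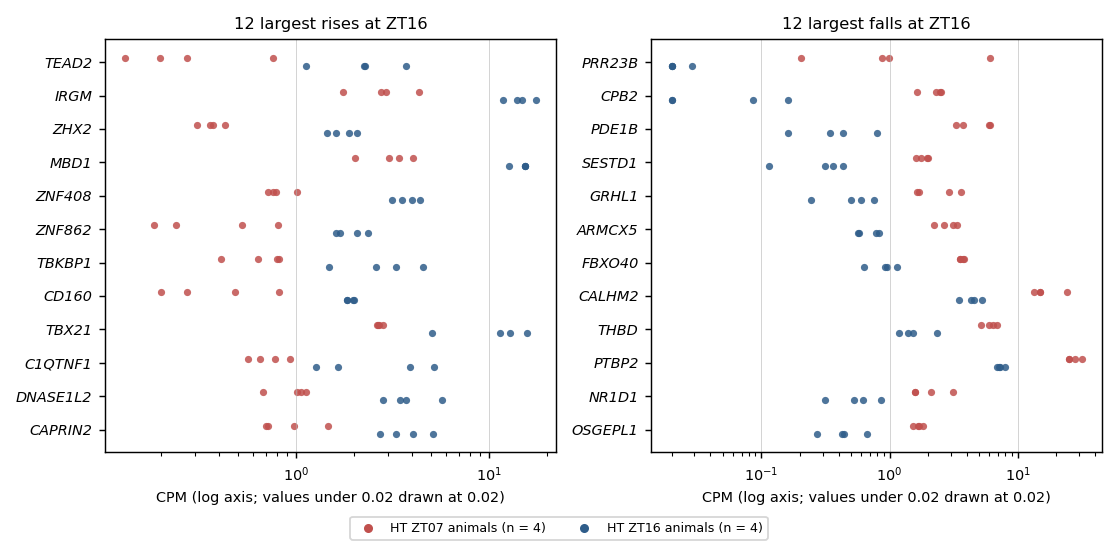
CPM of each HT animal (log axis) for the 12 genes with the largest rise and the 12 with the largest fall at ZT16, red for ZT07 and blue for ZT16, 4 animals each. In no gene do the animals of the 2 times overlap, which the choice of the genes required, and the ZT16 points of PRR23B and CPB2 lie at or near 0.

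The same step from ZT07 to ZT16 brought no gene past the test in NT animals. In a joint fit of the 16 HT and NT libraries of these times (11206 genes tested), 0 genes (0%) passed in NT animals, with 637 (5.68%) at an unadjusted p under 0.05 and 4 by DESeq2, while 1839 (16.4%) passed in HT animals. The genes that rose in HT animals had a median log2 fold change of 0.03 in NT animals, and those that fell had -0.07. Tested directly, the change differed between HT and NT animals in 409 genes (3.65%), 240 of them (2.14%) with a more positive and 169 (1.51%) with a more negative change in HT animals. With sex as a term in a fit of all 36 HT and NT libraries, 75 genes passed this test. That fit was not run without the sex term here, so the part of the term in the drop was not tested. With each animal left out in turn 181 to 465 did, and the count dropped by more than 1.5 times without HT ZT07 replicate 2 (181) or 4 (264), HT ZT16 replicate 4 (218) or NT ZT16 replicate 4 (252).

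In the genes whose change differed most clearly between the conditions, HT animals stood apart from NT animals at ZT07 and within or near their range at ZT16. For this description, CPM were scaled over all 36 HT and NT libraries, so they are not those given for the 8 libraries. PTBP2 averaged 8.61, 15.04, 20.7 and 5.47 CPM in HT animals at ZT01, ZT04, ZT07 and ZT16, against 6.16, 5.49, 4.56 and 5.18 CPM in NT animals (difference in log2 fold change -2.11 ± 0.24, edgeR adjusted p = 0.000392). LCP1, an actin-bundling protein of leukocytes, took the opposite course, with 42.8, 29.9, 19.0 and 48.7 CPM in HT animals and 44.5, 46.2, 45.6 and 46.0 CPM in NT animals (difference in log2 fold change 1.35 ± 0.17, edgeR adjusted p = 0.000542). DYNLL1, a dynein light chain, had 1.48 ± 0.210 CPM at ZT07 and 5.35 ± 0.743 CPM at ZT16 in HT animals, against 5.83 ± 0.464 and 6.11 ± 1.30 CPM in NT animals (SD, n = 4 each; difference in log2 fold change 1.78 ± 0.22, edgeR adjusted p = 0.000542). In PTBP2, LCP1 and DYNLL1 the ZT16 ranges of HT and NT animals overlapped, and at ZT07 they did not. PPP1R10, a nuclear subunit of protein phosphatase 1, and the zinc finger genes ZNF180 and ZNF408 completed the 6 genes of lowest p, with differences between the conditions of 1.67 ± 0.20, 1.76 ± 0.22 and 2.22 ± 0.26 on the log2 scale. MBD1 (2.18 ± 0.28), FKBP4 (1.86 ± 0.26), PER1 (-1.92 ± 0.31) and PDE4B (-1.05 ± 0.20) also differed, and the call in each of these 10 genes held with sex as a term and with any 1 animal left out. MBD1 ended above the NT range: HT animals had 11.0 ± 0.972 CPM at ZT16 (9.53 to 11.6 CPM), and NT animals 7.32 ± 1.73 CPM (4.93 to 9.02 CPM; SD, n = 4 each), females in HT and males in NT by their labels.

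**Figure D2:**
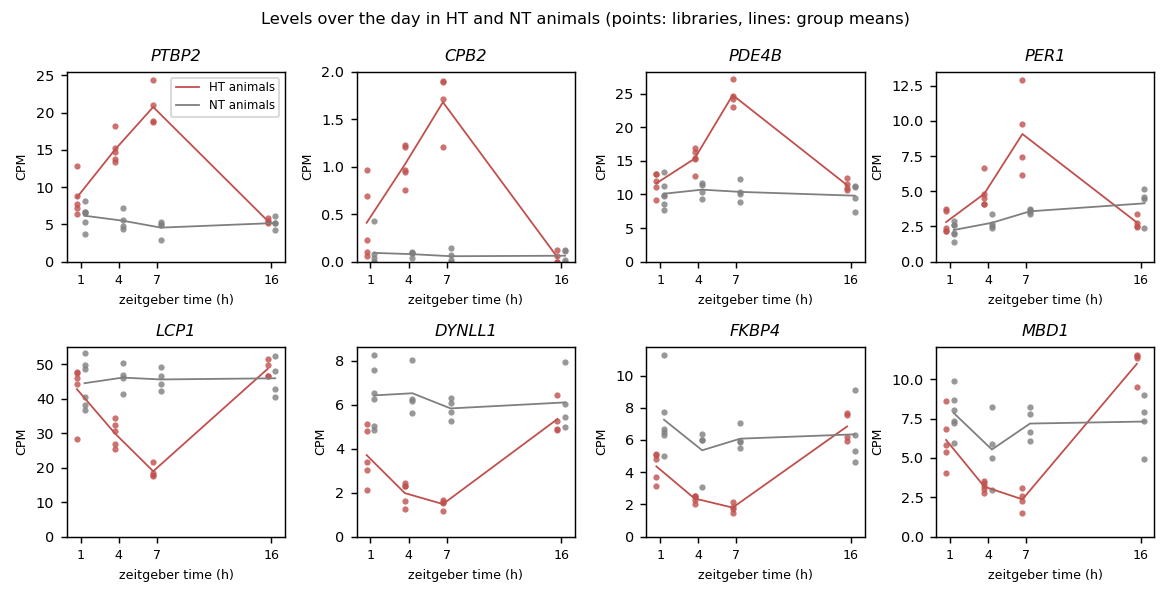
CPM of 8 genes at ZT01, ZT04, ZT07 and ZT16 in HT animals (red) and NT animals (grey), scaled over 36 libraries, with 1 point per animal and a line through the group means. HT animals depart furthest from NT animals at ZT07 and are near them again at ZT16, except for MBD1, which is above the NT animals there.

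A comparison that shares no library with this one was set beside it. At ZT04, mid torpor, 47 genes passed between 5 HT and 4 NT animals, 30 higher and 17 lower in HT. By label the HT animals were 2 males and 3 females and the NT animals 4 males, so sex and condition were not balanced there. All 47 had the opposite sign at ZT16 against ZT07 in HT animals, and 43 of them passed there. Over the 10425 genes tested in both, 68.8% had opposite signs, and Pearson's r across genes was -0.541, a description over genes that are not independent of each other. Of the genes past the test at ZT16 against ZT07, 90.3% of the higher (724 of 802) and 90.2% of the lower (810 of 898) had the opposite sign at ZT04.

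Clock genes had the largest share of falls among the lists described here. Of 22 clock genes with a count 19 could be tested, 9 fell and 1 rose (52.6%, against 15.9% of all genes tested). The median log2 fold change of the list was -0.86. NR1D2, a nuclear receptor that represses ARNTL, had 8.04, 10.9, 8.05 and 9.63 CPM at ZT07 and 3.26, 3.78, 3.68 and 2.81 CPM at ZT16 (log2 fold change -1.43 ± 0.15 (SE), edgeR adjusted p = 0.000483). Its relative NR1D1 had 2.12, 3.13, 1.59 and 1.59 CPM at ZT07 and 0.525, 0.616, 0.314 and 0.865 CPM at ZT16 (log2 fold change -1.88 ± 0.33 (SE), edgeR adjusted p = 0.00432). PER1, a repressor of CLOCK and ARNTL that glucocorticoids also induce, had 8.27, 16.8, 9.94 and 13.03 CPM at ZT07 and 3.64, 4.500, 3.296 and 3.42 CPM at ZT16 (log2 fold change -1.69 ± 0.21 (SE), edgeR adjusted p = 0.00101). The lowest ZT07 animal exceeded the highest ZT16 animal in all 3 genes. Over the clock list the groups did not overlap in 9 of 19 genes, against 21.9% of all genes tested. BHLHE40, a repressor of E-box transcription, fell to 1.49 to 4.79 CPM from 7.32 to 15.3 CPM (log2 fold change -1.62 ± 0.31 (SE), edgeR adjusted p = 0.00616). TEF, an activator under clock control, fell by 1.34 ± 0.22 on the log2 scale. RORA, an activator of ARNTL, fell by 0.99 ± 0.23, and in the joint fit of 16 libraries it did not pass (edgeR adjusted p = 0.118).

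Other clock genes stood at the edge of the test or did not pass it. BHLHE41 (-1.42 ± 0.35, edgeR adjusted p = 0.0174) lost its call without HT ZT07 replicate 2 (edgeR adjusted p = 0.0519) or 4 (edgeR adjusted p = 0.0530). CLOCK (-0.92 ± 0.28, edgeR adjusted p = 0.0418) lost it without any one of HT ZT07 replicates 1, 2 and 3 or HT ZT16 replicates 2, 3 and 4 (edgeR adjusted p of 0.0594 to 0.109). PER2, with 0.816, 0.801, 1.16 and 1.19 CPM at ZT07 and 1.74, 1.605, 1.57 and 2.07 CPM at ZT16, was the only clock gene with a higher level that passed (0.82 ± 0.23, edgeR adjusted p = 0.0316), and it did not pass without any one of HT ZT07 replicates 1 and 2 or HT ZT16 replicates 1, 3 and 4 (edgeR adjusted p of 0.0505 to 0.0893). PER1 and PER2, close relatives in the same loop, thus had log2 fold changes of opposite sign. ARNTL (-0.16 ± 0.19), NPAS2 (0.18 ± 0.24), CRY1 (0.23 ± 0.17), CRY2 (-0.28 ± 0.21), PER3 (-0.28 ± 0.39), NFIL3 (-0.59 ± 0.37), CIART (-0.86 ± 0.42), USP2 (-0.88 ± 0.46) and the kinase gene CSNK1D (-0.04 ± 0.12) did not pass. Between 7 and 9 clock genes fell when each animal was left out in turn. With sex as a term in the fit of 36 libraries, 7 of 21 tested clock genes fell and 0 rose. BHLHE41, PER2 and RORA did not pass there (edgeR adjusted p of 0.168, 0.0772 and 0.138). They did not pass without that term either (edgeR adjusted p of 0.146, 0.0616 and 0.101).

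The HT and NT changes of clock genes were compared directly, and the difference passed for some members and not for others. NR1D1 (-1.88 ± 0.34 in HT animals, -1.03 ± 0.34 in NT animals, difference in log2 fold change -0.85 ± 0.48, edgeR adjusted p = 0.35) and TEF (-1.34 ± 0.24 and -0.94 ± 0.24, difference in log2 fold change -0.40 ± 0.34, edgeR adjusted p = 0.587) had negative values in both and did not pass this test. PER1 had 0.22 ± 0.22 in NT animals against -1.70 ± 0.22 in HT animals, and this difference passed (difference in log2 fold change -1.92 ± 0.31, edgeR adjusted p = 0.00503). The difference also passed for BHLHE40 (NT -0.02, difference in log2 fold change -1.61 ± 0.41, edgeR adjusted p = 0.0355) and NR1D2 (NT -0.62, difference in log2 fold change -0.81 ± 0.21, edgeR adjusted p = 0.0355). The call for PER1 held with sex as a term and with any 1 animal left out. Those for BHLHE40 and NR1D2 did not hold in the fit of 36 libraries with sex as a term. Each held in 7 of the 16 fits that left out 1 animal (adjusted p up to 0.0843 and 0.0804).

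**Figure D3:**
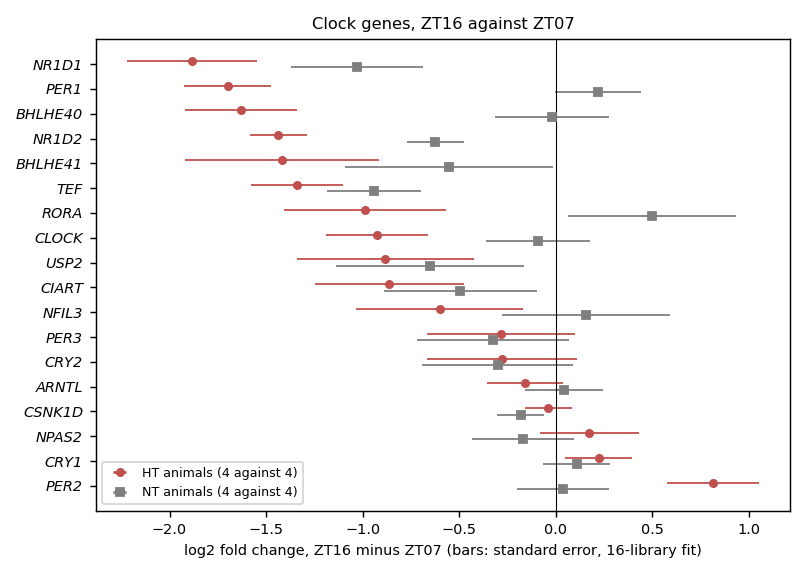
Log2 fold change (ZT16 minus ZT07) of the clock genes named in the text in HT animals (red) and NT animals (grey), with standard errors, from a fit of 16 libraries. NR1D1, TEF and NR1D2 lie below 0 in both, while PER1 and BHLHE40 lie below 0 in HT animals and near 0 in NT animals.

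Among genes that glucocorticoids and acute stimuli induce, those past the test were lower at ZT16. Of 19 tested glucocorticoid-responsive genes 6 fell and 0 rose (median -0.59), and of 27 immediate early genes 7 fell and 0 rose (median -0.34). The shares past the test were 31.6% and 25.9%, against 15.9% of all genes tested. TXNIP, an inhibitor of thioredoxin and of glucose uptake, had 96.95, 111, 69.9 and 90.5 CPM at ZT07 and 44.9, 35.6, 48.8 and 34.5 CPM at ZT16 (log2 fold change -1.17 ± 0.17 (SE), edgeR adjusted p = 0.00216). IRS2, an adaptor of the insulin receptor, fell by 1.28 ± 0.22 on the log2 scale. SGK1, a kinase induced by glucocorticoids (-1.47 ± 0.33), DUSP1, a phosphatase that switches off MAP kinases (-1.29 ± 0.26), and CEBPB, a transcription factor of inflammation and the acute phase (-1.22 ± 0.28), fell as well. Of the immediate early genes, NR4A1, an orphan nuclear receptor, had 34.9, 52.01, 41.8 and 36.1 CPM at ZT07 and 23.4, 8.91, 19.9 and 17.8 CPM at ZT16 (log2 fold change -1.24 ± 0.25 (SE), edgeR adjusted p = 0.00771), and KLF10 (-1.54 ± 0.25), a repressor induced by TGF-beta, fell with it. The HT and NT changes differed for IRS2 (NT 0.43, difference in log2 fold change -1.72 ± 0.31, edgeR adjusted p = 0.00859). This call did not hold in the fit of 36 libraries with sex as a term. The summed CPM of the glucocorticoid list was 237 to 295 at ZT07 and 143 to 166 at ZT16. Leaving out each animal in turn left 6 or 7 glucocorticoid-responsive and 5 to 7 immediate early genes that fell.

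NF-kappaB relays inflammatory and Toll-like receptor signals. Of 25 tested genes for cytokines and inflammation 7 fell, 0 rose and 18 did not pass, with 7 lower and 3 higher by DESeq2. The share past the edgeR test was 28%, against 15.9% of all genes tested. The median log2 fold change of the list was -0.11, and its summed CPM overlapped, at 198 to 236 at ZT07 and 182 to 213 at ZT16. NFKBIA, the inhibitor that holds NF-kappaB in the cytoplasm and is itself one of its targets, had 21.6, 27.6, 22.7 and 27.2 CPM at ZT07 and 12.5, 9.54, 11.6 and 12.3 CPM at ZT16 (log2 fold change -1.11 ± 0.14 (SE), edgeR adjusted p = 0.00113). The subunit gene REL (-1.27 ± 0.23) and the feedback inhibitor TNFAIP3 (-1.01 ± 0.18) fell with it, and RELB had -0.70 ± 0.17. BIRC3, an NF-kappaB target that protects cells from death, had 26.8, 28.9, 26.9 and 34.3 CPM at ZT07 and 15.4, 9.95, 12.02 and 12.2 CPM at ZT16 (log2 fold change -1.24 ± 0.16 (SE), edgeR adjusted p = 0.00106). The chemokine gene CXCL2 was low throughout, at 0.280 to 0.736 CPM at ZT07 and 0 to 0.109 CPM at ZT16, and passed (edgeR adjusted p = 0.0126). Among Toll-like receptors and their partners, TLR2 (1.60 ± 0.32), TLR3 (1.63 ± 0.38), TLR6 (1.58 ± 0.31) and TLR8 (1.59 ± 0.34) and the kinase gene IRAK2 (0.87 ± 0.21) rose, while the adaptor TRAF6 (-0.98 ± 0.20) fell. TLR2 had 0.699, 0.542, 1.44 and 0.617 CPM at ZT07 and 2.23, 1.83, 2.597 and 3.34 CPM at ZT16, with no overlap between the times. Of 21 tested genes of the list of Toll-like receptors and adaptors 5 rose and 3 fell (38.1%, against 15.9% of all genes tested). With each animal left out 6 or 7 passed. The groups did not overlap in 8 of the 21, against 21.9% of all genes tested.

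Cytotoxic lymphocyte markers had the largest share of rises among the lists described here. Of 22 tested markers of NK and cytotoxic cells 9 rose and 1 fell (45.5%, against 15.9% of all genes tested), with a median of 0.89. TBX21, also known as T-bet, which directs NK cells and type 1 T cells, had 2.83, 2.66, 2.63 and 2.69 CPM at ZT07 and 11.4, 5.06, 15.7 and 12.8 CPM at ZT16 (log2 fold change 2.06 ± 0.27 (SE), edgeR adjusted p = 0.00137). The activating NK receptor NCR1 had 1.61, 1.42, 2.26 and 1.99 CPM at ZT07 and 5.901, 4.098, 9.08 and 6.84 CPM at ZT16 (log2 fold change 1.84 ± 0.24 (SE), edgeR adjusted p = 0.00129), and KLRD1, a partner chain of NK receptors, had 1.903, 1.31, 1.83 and 1.69 CPM at ZT07 and 5.74, 3.64, 8.36 and 5.95 CPM at ZT16 (log2 fold change 1.82 ± 0.24 (SE), edgeR adjusted p = 0.00129). CD160, a receptor of NK and cytotoxic T cells, rose from 0.199 to 0.813 CPM to 1.83 to 1.99 CPM (log2 fold change 2.06 ± 0.37 (SE), edgeR adjusted p = 0.00432). In these 4 genes no ZT16 animal overlapped with a ZT07 animal, and in the first 3 HT ZT16 replicate 2 was the lowest of its group. Over the list the groups did not overlap in 5 of 22 markers, near the 21.9% of all genes tested. KLRK1, the receptor NKG2D (1.34 ± 0.27), and PRF1, the pore-forming perforin, also rose, PRF1 with 15.3, 10.7, 24.3 and 31.5 CPM at ZT07 and 56.2, 26.95, 72.5 and 63.1 CPM at ZT16 (log2 fold change 1.42 ± 0.34 (SE), edgeR adjusted p = 0.0163) and an overlap through HT ZT16 replicate 2. With each animal left out in turn, 6 to 14 markers passed, and they were fewest (6, all higher) without HT ZT07 replicate 1. The count dropped by more than 1.5 times also without HT ZT07 replicate 2, HT ZT16 replicate 3 or HT ZT16 replicate 4. The 1 that fell, S1PR5 (-0.64 ± 0.19), is the receptor through which NK cells leave lymphoid tissue along sphingosine-1-phosphate. It was singled out after its values were seen, and passed in 1 of the 8 fits that left out 1 animal, the one without HT ZT16 replicate 1 (adjusted p of 0.0542 to 0.0977 in the others).

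In NT animals no cytotoxic marker passed the test. The list had a median log2 fold change of 0.61 there. TBX21 (NT 0.99), NCR1 (NT 0.77), KLRD1 (NT 0.71), KLRK1 (NT 0.66) and PRF1 (NT 0.78) did not pass the test of a difference between HT and NT. CD160 passed it (NT -0.16, difference in log2 fold change 2.22 ± 0.48, edgeR adjusted p = 0.0195), though not in the fit of 36 libraries with sex as a term. The summed CPM of the list was 78.5 to 136 in the ZT07 and 118 to 291 in the ZT16 animals, so the groups overlapped in the sum. The part of cell numbers in these values was not tested.

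Of 30 tested receptors that guide leukocytes in and out of tissue 8 rose, 2 fell and 20 did not pass (median 0.29). The share past the test was 33.3%, against 15.9% of all genes tested. The summed CPM of the list overlapped, at 487 to 523 at ZT07 and 513 to 527 at ZT16. The 2 that fell were S1PR5 and the integrin gene ITGA4 (-0.51 ± 0.15), which was singled out in the same way and did not pass without any one animal other than HT ZT07 replicates 1 and 4 (adjusted p of 0.0502 to 0.122). CXCR3 (1.72 ± 0.37) and CCR4 (2.30 ± 0.46), chemokine receptors of effector T cells, rose from low levels, CXCR3 with 0.233, 0.222, 0.262 and 0.279 CPM at ZT07 and 0.579, 0.602, 1.03 and 1.09 CPM at ZT16. CCR7, which leads naive T cells into lymph nodes, had 19.2, 12.8, 18.4 and 27.02 CPM at ZT07 and 32.5, 56.5, 29.9 and 39.95 CPM at ZT16 (log2 fold change 1.04 ± 0.24 (SE), edgeR adjusted p = 0.0141). The adhesion molecule ICAM2 rose with 0.71 ± 0.15. In CXCR3, CCR4 and CCR7 all ZT16 animals exceeded all ZT07 animals. Over the list the groups did not overlap in 9 of 30 genes, against 21.9% of all genes tested. With each animal left out, 6 to 9 genes of the list passed, with fewest (5 higher, 1 lower) without HT ZT07 replicate 1, and the count also dropped by more than 1.5 times without HT ZT16 replicate 1, 3 or 4. In the fit of 36 libraries with sex as a term 6 rose and 1 fell. S1PR5 and ITGA4 did not pass there (edgeR adjusted p of 0.191 and 0.28, or 0.161 and 0.224 without that term).

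T cell markers had few calls (8% of those tested), and B cell markers passed in 20%, against 15.9% of all genes tested. Of 25 tested T cell markers 2 rose and 0 fell, a share below that of all genes tested, among them CD27 (0.86 ± 0.16), a co-stimulatory receptor. Without HT ZT07 replicate 2, 1 passed. At an unadjusted p under 0.05 there were 11, and by DESeq2 6, all higher. The summed CPM of the T cell list was 235 to 345 at ZT07 and 304 to 506 at ZT16. Of 20 tested B cell markers 2 rose and 2 fell: the scaffold gene BANK1 had 3.77, 3.203, 6.35 and 3.58 CPM at ZT07 and 9.29, 8.71, 11.5 and 8.203 CPM at ZT16 (log2 fold change 1.16 ± 0.21 (SE), edgeR adjusted p = 0.00471), whereas the transcription factors EBF1 (-0.86 ± 0.17) and BACH2 (-0.93 ± 0.22) fell. With sex as a term in the fit of 36 libraries 1 B cell marker rose and 0 fell. EBF1 (edgeR adjusted p = 0.0586) and BACH2 (edgeR adjusted p = 0.0918, or 0.0662 without that term) did not pass. The summed CPM of the B cell list overlapped, at 214 to 365 and 236 to 293.

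**Figure D4:**
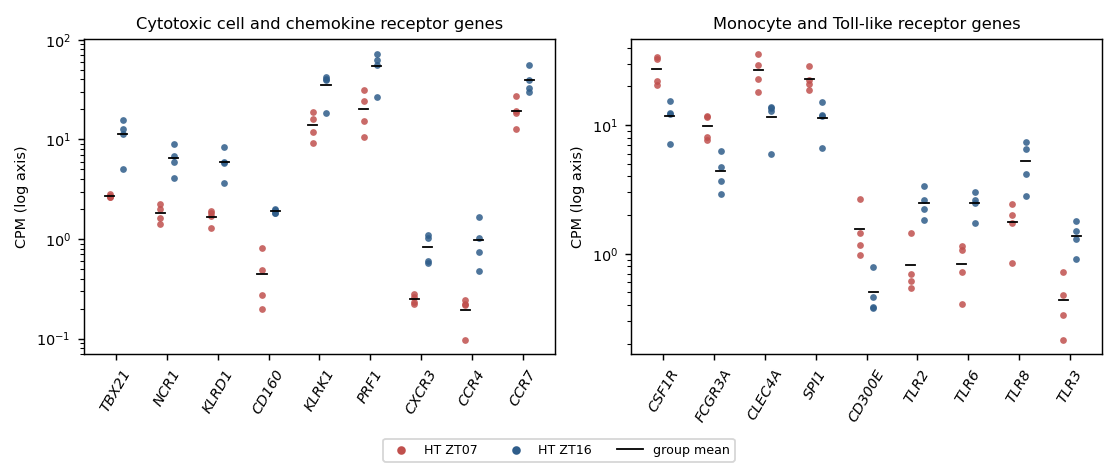
CPM (log axis) of each HT animal for cytotoxic cell and chemokine receptor genes (left) and for monocyte and Toll-like receptor genes (right), red for ZT07 and blue for ZT16, with a bar at the mean of 4 animals. The genes on the left and the Toll-like receptors lie higher at ZT16, and CSF1R, FCGR3A, CLEC4A, SPI1 and CD300E lie lower.

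Myeloid genes were divided. Of 23 tested monocyte markers 7 fell, 1 rose and 15 did not pass, with 34.8% called against 15.9% of all genes tested. Their values were positive in 9 and negative in 14. TLR2 was the one that rose. CSF1R, the receptor for the growth factor of monocytes, had 20.4, 33.6, 32.7 and 21.9 CPM at ZT07 and 15.3, 7.18, 12.3 and 12.3 CPM at ZT16 (log2 fold change -1.21 ± 0.24 (SE), edgeR adjusted p = 0.00658). FCGR3A, an Fc receptor (-1.16 ± 0.23), CLEC4A, an inhibitory lectin receptor (-1.21 ± 0.27), CD300E (-1.65 ± 0.38) and SPI1, the myeloid transcription factor PU.1 (-0.997 ± 0.23), fell too. HT ZT16 replicate 2 was the lowest of the 8 animals in CSF1R, FCGR3A, CLEC4A and SPI1, and the other 3 ZT16 animals were also below all 4 ZT07 animals. Over the monocyte list the groups did not overlap in 9 of 23 genes, against 21.9% of all genes tested. In the fit of 36 libraries with sex as a term, 3 monocyte markers fell and 1 rose. CSF1R (edgeR adjusted p = 0.0777), FCGR3A (edgeR adjusted p = 0.0777) and CD300E (edgeR adjusted p = 0.0764) did not pass there. Without that term these 3 genes did not pass either (edgeR adjusted p of 0.0596, 0.0687 and 0.0591). The summed CPM of the monocyte list overlapped (351 to 507 and 248 to 451). Between 6 and 7 fell with each animal left out.

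Of 19 tested neutrophil markers 4 rose, 1 fell and 14 did not pass, with 26.3% called against 15.9% of all genes tested. Their values were positive in 12 and negative in 7. The median log2 fold change of the list was 0.20 in HT animals and 0.49 in NT animals. PADI4, which citrullinates histones in neutrophils, had 3.38, 3.54, 4.86 and 3.04 CPM at ZT07 and 5.94, 7.65, 11.7 and 14.8 CPM at ZT16 (log2 fold change 1.43 ± 0.26 (SE), edgeR adjusted p = 0.00484). The formyl peptide receptor gene FPR1 rose from 0.0246 to 0.355 CPM to 0.960 to 1.12 CPM (log2 fold change 2.48 ± 0.56 (SE), edgeR adjusted p = 0.0128) and MCEMP1, a membrane protein of mast cells and myeloid cells, rose with 1.16 ± 0.26. CAMP, the cathelicidin of neutrophil granules, fell (-1.37 ± 0.26), and did not pass in the fit of 36 libraries with sex, in which 3 neutrophil markers rose and 0 fell. The summed CPM was 85.6 to 136 at ZT07 and 127 to 146 at ZT16. Of the list, 4 or 5 genes passed with each animal left out.

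Platelet and red cell markers had few calls (10.7% and 4.88% of those tested, against 15.9% of all genes tested). Of 28 tested platelet markers 3 rose and 0 fell, NRGN, a calmodulin-binding protein abundant in platelets, among them (0.91 ± 0.20), and 1 passed without HT ZT07 replicate 2, the lowest count over the animals left out, with a drop by more than 1.5 times also without HT ZT16 replicate 1 or 3. With sex as a term in the fit of 36 libraries 1 platelet marker passed, and NRGN did not (edgeR adjusted p = 0.176, or 0.151 without that term). Of 41 erythroid markers 2 rose and 0 fell, 1 or 2 with each animal left out. The 3 heart muscle and 3 endothelial markers that could be tested did not pass by edgeR or DESeq2, with 1 heart and 0 endothelial markers at an unadjusted p under 0.05. The summed CPM of the heart list overlapped fully (5.77 to 22.3 and 6.13 to 26.6).

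Of 33 tested heat shock proteins and co-chaperones 7 rose, 1 fell and 25 did not pass (24.2% called, against 15.9% of all genes tested). The median of the list was 0.31 in HT animals and 0.21 in NT animals. Of 13 tested genes of the chaperonin and prefoldin, which also fold proteins in the cytosol, none passed by edgeR or DESeq2, with 2 at an unadjusted p under 0.05 (median 0.04), and their summed CPM overlapped (136 to 146 at ZT07, 129 to 153 at ZT16). FKBP4, a co-chaperone of HSP90 in steroid receptor complexes, had 2.93, 2.21, 2.45 and 1.97 CPM at ZT07 and 10.2, 10.1, 7.95 and 8.28 CPM at ZT16 (log2 fold change 1.94 ± 0.16 (SE), edgeR adjusted p = 0.000184). HSPA8, the constitutive HSP70, had 57.01, 54.3, 52.01 and 53.00 CPM at ZT07 and 109, 109.7, 83.03 and 81.99 CPM at ZT16 (log2 fold change 0.83 ± 0.14 (SE), edgeR adjusted p = 0.00385). STIP1, which links HSP70 to HSP90, rose (0.85 ± 0.16) and DNAJC7, another co-chaperone, fell (-0.67 ± 0.14). The 4 animals of each time did not overlap in any of these 4 genes. Over the heat shock list they did not overlap in 13 of 33 genes, against 21.9% of all genes tested. The count of calls was lowest without HT ZT07 replicate 2 (4 higher, 1 lower), and also dropped by more than 1.5 times without HT ZT07 replicate 4 or HT ZT16 replicate 1. In NT animals HSPA8 had 0.25 and STIP1 0.40, and neither gene passed the test of a difference between HT and NT.

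Of 24 tested genes of the unfolded protein response 2 rose and 5 fell (29.2%, against 15.9% of all genes tested), with a median of 0.06. In the fit of 36 libraries with sex as a term 2 rose and 2 fell. HYOU1, a chaperone of the endoplasmic reticulum, had 5.01, 6.94, 6.15 and 6.09 CPM at ZT07 and 10.2, 10.7, 9.39 and 11.00 CPM at ZT16 (log2 fold change 0.77 ± 0.13 (SE), edgeR adjusted p = 0.0041), and PDIA4, a disulfide isomerase, rose with 0.79 ± 0.18. HERPUD1, which takes part in the degradation of misfolded proteins, had 6.505, 7.15, 7.75 and 6.59 CPM at ZT07 and 4.399, 3.87, 3.15 and 3.92 CPM at ZT16 (log2 fold change -0.87 ± 0.14 (SE), edgeR adjusted p = 0.00328). With each animal left out 3 to 6 genes of the list passed, with fewest (2 higher, 1 lower) without HT ZT07 replicate 3, and a drop by more than 1.5 times also without HT ZT07 replicate 1 or 2 or HT ZT16 replicate 2 or 4. Of the 6 tested RNA-binding proteins that cold induces, 1 fell (16.7%, against 15.9% of all genes tested). It was RBM3, with 23.3, 20.03, 19.1 and 25.9 CPM at ZT07 and 11.9, 8.698, 14.3 and 12.6 CPM at ZT16 (log2 fold change -0.89 ± 0.17 (SE), edgeR adjusted p = 0.00569). Its relative CIRBP had -0.30 ± 0.15 and did not pass, and the values of both genes were negative in NT animals too (-0.54 and -0.14).

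Most calls among genes of sterol metabolism were falls. Of 27 tested genes of cholesterol synthesis and its regulation 9 fell and 1 rose (37%, against 15.9% of all genes tested), with a median of -0.38. The riser was DHCR7 (0.64 ± 0.18), the last enzyme of the pathway, singled out after its values were seen. DHCR7 did not pass without any one of HT ZT07 replicates 1 and 2 or HT ZT16 replicates 1, 3 and 4 (adjusted p of 0.0592 to 0.0936). The summed CPM was 198 to 214 at ZT07 and 132 to 160 at ZT16. INSIG1, which retains the sterol-regulated transcription factors in the endoplasmic reticulum, had 23.5, 23.5, 24.6 and 22.3 CPM at ZT07 and 9.88, 5.102, 13.4 and 8.69 CPM at ZT16 (log2 fold change -1.34 ± 0.23 (SE), edgeR adjusted p = 0.00394). The master regulator SREBF2 had 33.05, 38.1, 39.02 and 35.8 CPM at ZT07 and 21.8, 19.8, 24.9 and 20.9 CPM at ZT16 (log2 fold change -0.74 ± 0.13 (SE), edgeR adjusted p = 0.00388). The enzyme gene SC5D (-0.79 ± 0.15), the exporter ABCA1 (-0.94 ± 0.20) and MYLIP, a ligase that removes the LDL receptor (-0.61 ± 0.13), fell as well, so that genes for making sterols and for exporting them or limiting their uptake moved the same way. Without HT ZT16 replicate 1, 6 fell and 0 rose. In NT animals the list had a median of -0.22.

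The phosphodiesterases, which break down cyclic nucleotides, were divided. Of 32 tested genes of cAMP signalling and phosphodiesterases 4 rose and 3 fell (21.9%, against 15.9% of all genes tested). The 3 that fell were PDE1B, PDE4B and PDE8A. PDE4B, a cAMP-specific phosphodiesterase prominent in leukocytes, had 33.3, 29.98, 32.1 and 36.3 CPM at ZT07 and 14.6, 16.5, 15.4 and 14.3 CPM at ZT16 (log2 fold change -1.12 ± 0.12 (SE), edgeR adjusted p = 0.000492), and PDE8A had -1.17 ± 0.21. CRTC1, a coactivator of CREB, rose from 0.788 to 1.15 CPM to 2.33 to 3.11 CPM (log2 fold change 1.37 ± 0.20 (SE), edgeR adjusted p = 0.00207) and PDE6D, a carrier of lipid-modified proteins, rose with 0.71 ± 0.15. Of the list, 5 or 6 genes passed with each animal left out.

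Genes of energy metabolism were read against the 15.9% of all genes that passed. Of 73 tested nuclear-encoded genes of the respiratory chain 2 rose and 7 fell, a share of 12.3%, below that of all genes. NDUFB1, a subunit of complex I, had 7.55, 11.7, 14.05 and 10.2 CPM at ZT07 and 3.42, 4.47, 3.58 and 2.55 CPM at ZT16 (log2 fold change -1.63 ± 0.21 (SE), edgeR adjusted p = 0.00117), and NDUFB11, another, 1.57, 2.24, 1.61 and 1.47 CPM at ZT07 and 0.543, 0.444, 0.514 and 0.483 CPM at ZT16 (log2 fold change -1.80 ± 0.25 (SE), edgeR adjusted p = 0.00149). NDUFV3, also of complex I, rose (0.76 ± 0.15), so subunits of one complex moved in opposite directions. Glycolysis had 1 higher and 0 lower of 31, and 0 or 1 with each animal left out. Fatty acid oxidation and fasting genes had 1 higher and 3 lower of 32, among them ACSL4 (-0.95 ± 0.21), which activates long-chain fatty acids. Their count without HT ZT16 replicate 4 was 2. Of 39 mTOR and AMPK genes 2 rose and 5 fell (17.9%), among them PRKAA2, a catalytic subunit of AMPK (-1.15 ± 0.26), PRR5, a member of mTOR complex 2 (-1.22 ± 0.20), and RHEB, the activator of mTOR complex 1 (-0.49 ± 0.12), with 4 calls without HT ZT07 replicate 2 and a drop by more than 1.5 times also without HT ZT16 replicate 4. Of 44 autophagy genes 1 rose and 7 fell (18.2%), among them ATG3 (-1.08 ± 0.19), ATG13 (-0.68 ± 0.15) and ATG2A (-0.62 ± 0.13), with 1 higher and 3 lower without HT ZT07 replicate 2 and a drop by more than 1.5 times also without HT ZT16 replicate 1, 3 or 4.

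RNA-processing genes changed in both directions. Of 54 tested splicing factors and their kinases 7 rose and 7 fell (25.9%, against 15.9% of all genes tested). The sum of the list was near equal, at 1306 to 1457 CPM at ZT07 and 1280 to 1429 CPM at ZT16. Beside PTBP2, the fallers included SF3B1, a core part of the U2 particle (-0.62 ± 0.13), HNRNPL (-0.68 ± 0.12) and HNRNPDL (-0.75 ± 0.12), and the risers SRSF5 (0.63 ± 0.12) and HNRNPA2B1 (0.52 ± 0.12). Leaving out HT ZT07 replicate 2 left 5 higher and 4 lower, and the count dropped by more than 1.5 times also without HT ZT16 replicate 1. Of 37 genes of RNA polymerase II and its general factors 4 rose and 5 fell (24.3%, against 15.9% of all genes tested). Among them were TAF8 (-0.60 ± 0.13) and TAF1, the scaffold of TFIID. TAF1 had 8.64, 7.91, 9.901 and 7.26 CPM at ZT07 and 16.1, 20.9, 16.4 and 16.7 CPM at ZT16 (log2 fold change 1.05 ± 0.14 (SE), edgeR adjusted p = 0.00149). Without HT ZT07 replicate 2, 3 rose and 1 fell, and the count also dropped by more than 1.5 times without HT ZT16 replicate 1, 3 or 4.

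Of the genes of protein synthesis, ribosomal proteins and translation factors had few calls (2.56% and 3.92% of those tested). Ribosome biogenesis genes passed in 19%, against 15.9% of all genes tested. Of 78 tested cytosolic ribosomal protein genes 0 rose and 2 fell, and 7 fell by DESeq2, but 76 had negative values (median -0.30, against 0.01 over all genes). The NT median of the list was -0.24, close to that of HT animals. RPS6, the ribosomal protein that the mTOR pathway phosphorylates, had 11.3, 8.67, 10.3 and 8.12 CPM at ZT07 and 5.63, 6.08, 5.48 and 5.11 CPM at ZT16 (log2 fold change -0.78 ± 0.14 (SE), edgeR adjusted p = 0.0044). With sex as a term in the fit of 36 libraries RPS6 did not pass (edgeR adjusted p = 0.0571), nor did any of the 78 genes. The calls were 1 to 13 with each animal left out, 1 without HT ZT07 replicate 1. Ribosome biogenesis had 2 higher and 6 lower of 42, among them LTV1 (-0.66 ± 0.13) and GNL3 (-0.90 ± 0.22), and 2 to 5 calls with each animal left out, fewest without HT ZT07 replicate 2. Of 51 translation factors 1 rose and 1 fell, and 0 to 4 with each animal left out.

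Among the remaining lists, 16.2% of cell death, 16.2% of antioxidant, 9.38% of iron and haem and 13.6% of proteasome genes tested passed. These shares were near or below the 15.9% of all genes tested. Cell death genes had 1 higher and 5 lower of 37, with MCL1, a survival factor of the BCL2 family, at 126, 127, 101 and 112 CPM at ZT07 and 76.95, 76.2, 78.4 and 84.5 CPM at ZT16 (log2 fold change -0.56 ± 0.13 (SE), edgeR adjusted p = 0.013) and MDM2, the ligase that degrades p53, also lower (-0.84 ± 0.14). Without HT ZT07 replicate 2 their count was 3. Antioxidant enzymes had 3 higher and 3 lower of 37. NQO2, a quinone reductase, had 0.796, 0.8500, 1.08 and 0.915 CPM at ZT07 and 3.29, 2.95, 2.997 and 2.67 CPM at ZT16 (log2 fold change 1.71 ± 0.19 (SE), edgeR adjusted p = 0.000483), and GCLC, which starts glutathione synthesis, fell (-0.74 ± 0.15). Without HT ZT07 replicate 2 this list had 1 higher and 1 lower, and a drop by more than 1.5 times also without HT ZT07 replicate 4 or HT ZT16 replicate 1 or 3. Iron and haem genes had 1 higher and 2 lower of 32, with the haem exporter FLVCR1 (-1.15 ± 0.19) and the mitochondrial iron carrier SLC25A28 (-0.90 ± 0.15) lower. The immunoproteasome subunit PSMB8 rose (0.76 ± 0.13) while the constitutive subunit PSMA1 (-0.59 ± 0.12) and the ATPase PSMC2 (-0.67 ± 0.15) fell, among 2 higher and 4 lower of 44 proteasome genes, a count of 3 without HT ZT07 replicate 2 with a drop by more than 1.5 times also without HT ZT07 replicate 4 or HT ZT16 replicate 4.

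Interferon-stimulated and hypoxia-inducible genes passed in 14.7% and 16% of those tested, near the 15.9% of all genes tested. Interferon-stimulated genes had 3 higher and 2 lower of 34, among them STAT2, a transcription factor of the interferon response (0.61 ± 0.13), and SAMD9L, an antiviral factor (1.45 ± 0.26). Without HT ZT07 replicate 2, 3 rose and 0 fell, and the count dropped by more than 1.5 times also without HT ZT16 replicate 1. Hypoxia-inducible genes had 1 higher and 3 lower of 25, with P4HA1, a collagen prolyl hydroxylase, higher (1.11 ± 0.24) and EGLN1, an oxygen sensor, lower (-0.82 ± 0.19). Of 18 genes of MHC class II and its regulators 7 had a count and were tested. The class II genes HLA-DRA, HLA-DRB1, HLA-DRB5, HLA-DQA1, HLA-DQB1, HLA-DPA1, HLA-DPB1, HLA-DMA, HLA-DMB, HLA-DOA and HLA-DOB had 0 counts in the 8 libraries. Their change could not be tested. The 7 tested genes had 0 calls by edgeR, 2 at an unadjusted p under 0.05 and 2 lower by DESeq2, with CD74, the invariant chain, at 463, 356, 429 and 397 CPM at ZT07 and 299, 234, 362 and 331 CPM at ZT16 (edgeR adjusted p = 0.0963). DNA replication and mitosis genes, which are on in dividing cells, had 0 higher and 1 lower of 37, CDK2 (-0.68 ± 0.16).

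**Figure D5:**
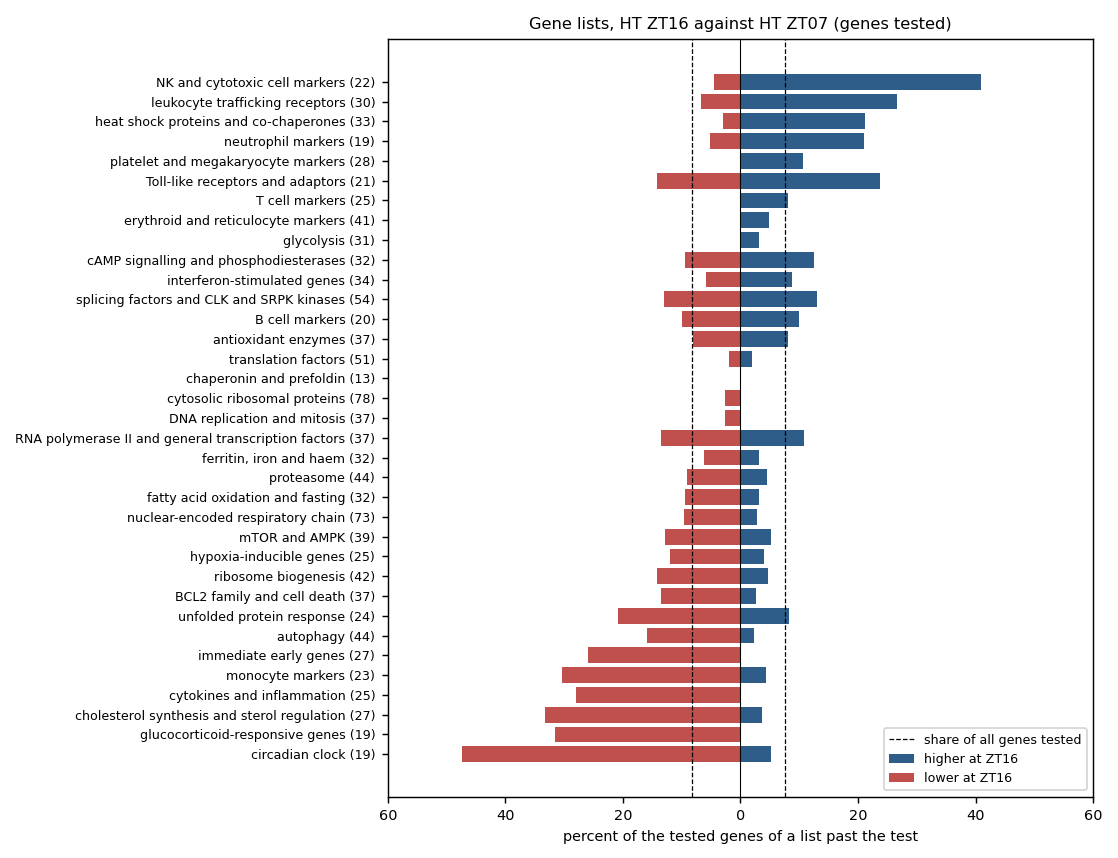
Percent of the tested genes of each list past the test at ZT16 against ZT07 in HT animals, higher to the right (blue) and lower to the left (red), with the number tested beside each name. Dashed lines mark the shares of all genes, 7.56% higher and 8.32% lower. Cytotoxic markers reach furthest to the right and clock genes furthest to the left.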

How the data were processed

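RNA from frozen blood pellets was sequenced by the authors as paired ends. They checked the reads with fastqc, trimmed them with trimmomatic, assembled a transcriptome de novo from all samples with trinity, named each contig after the human protein it matched best, and counted the reads aligned to the contigs. The deposited values are raw counts for 20220 symbols in 41 libraries, of which 13912 had a count in the 8 libraries, whose totals were 52461626 to 70439413. Groups follow the sample labels.

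In R 4.3.3, edgeR 4.0.16 was used to test the counts (scaling by TMM, filterByExpr with minimum count 10 and minimum total 15, quasi-likelihood test, Benjamini-Hochberg adjustment over all genes tested, threshold 0.05). The NT change and the difference of the HT and NT changes came from 1 fit of the 16 libraries at ZT07 and ZT16. Alternatives were DESeq2 1.42.0, limma 3.58.1 (voom with quality weights), other scalings and filters, a replicate block, sex as a term and leaving out animals. The steps were tested on simulated data. Figures were drawn with matplotlib 3.10.9.

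The comparison and the gene lists were chosen with earlier results of these data known. Named genes are the 12 largest rises and 12 largest falls among genes past the test whose groups did not overlap and whose mean was at least 1 CPM, all measured clock genes, RBM3 and CIRBP, up to 6 genes of each other list by lowest p (past the test, or the first 3) and the 6 genes of lowest p for the difference between HT and NT. A selection of these is printed, and a few genes are not reported here. None of the 28 pairs of libraries were duplicates: the lowest chi-square between 2 libraries, divided by its degrees of freedom, was 21.7, where copies give about 1. P-values cover the spread between animals, 1 library each.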

Additional observations from a re-analysis of the deposited data

Results flagged for a closer look

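Of the genes named in the report, 54 had a change from ZT07 to ZT16 that differed between HT and NT animals (edgeR, adjusted p under 0.05, fit of 16 libraries). Each value is the log2 fold change of HT animals minus that of NT animals. In 10 genes the difference also passed with sex as a term in the fit of 36 libraries: DYNLL1 (1.78), FKBP4 (1.86), LCP1 (1.35), MBD1 (2.18), PDE4B (-1.05), PER1 (-1.92), PPP1R10 (1.67), PTBP2 (-2.11), ZNF180 (1.76) and ZNF408 (2.22). Among the others the difference was negative in ARMCX5 (-1.65), ATG3 (-1.36), BHLHE40 (-1.61), CALHM2 (-1.59), CAMP (-2.23), CD300E (-2.36), CPB2 (-5.24), DUSP1 (-1.51), FBXO40 (-1.71), GRHL1 (-2.11), HERPUD1 (-0.84), IRS2 (-1.72), LTV1 (-0.76), MDM2 (-0.87), MYLIP (-0.81), NDUFB1 (-1.48), NDUFB11 (-1.81), NR1D2 (-0.81), OSGEPL1 (-1.94), PDE1B (-3.06), REL (-1.45), THBD (-1.71), TNFAIP3 (-1.13), TRAF6 (-1.03) and TXNIP (-0.91). It was positive in BANK1 (1.252), C1QTNF1 (1.95), CAPRIN2 (1.85), CD160 (2.22), CRTC1 (1.10), DNASE1L2 (1.57), HYOU1 (0.86), ICAM2 (1.04), IRGM (1.81), NDUFV3 (0.95), NQO2 (1.58), PDE6D (0.95), PSMB8 (0.82), TAF1 (0.93), TEAD2 (2.31), TLR2 (1.71), TLR8 (1.68), ZHX2 (2.36) and ZNF862 (2.29). The difference passed in every fit that left out 1 of the 16 animals for 25 of the 54 genes. Sex and time went together in NT animals, and their parts in these differences cannot be told apart. The fit of 36 libraries was not run without the sex term for this test. The part of that term in the 44 lost calls was therefore not tested.

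In 11 of 286 groups of 4 examined (both times of each named gene, and the haemoglobin share) 1 animal stood far from the other 3, where chance gives about 1 in 20. HT ZT16 replicate 2 was the lowest in CLEC4A (5.93 CPM), FPR1 (0.960 CPM), KLRK1 (18.5 CPM) and MBD1 (12.6 CPM), and the highest in TAF1 (20.9 CPM) and in PRR23B (0.0287 CPM, 2 counts). HT ZT16 replicate 4 was the highest in RELB (4.64 CPM). HT ZT07 replicate 1 was the highest in PRR23B (6.04 CPM) and the lowest in CCR4 (0.0971 CPM), HT ZT07 replicate 2 the highest in CALHM2 (24.2 CPM) and HT ZT07 replicate 4 the lowest in NDUFV3 (3.92 CPM).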

How the results depend on the processing

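The 1721 genes past the test between ZT16 and ZT07 in HT animals became 1027 to 1679 with each animal left out. They became 372 without both HT ZT07 replicates 1 and 2, whose labelled sexes the UTY counts go against, with 2 animals left against 4. The part of the smaller group in this drop was not tested. The count was 2088 by DESeq2, 1419 in animals labelled female and 3287 under the looser cut-offs of the study, an unadjusted p of at most 0.05 and a minimum fold change. DESeq2 called 4 genes in NT animals. The 409 genes whose change differed between HT and NT became 749 by DESeq2, 75 in the fit of 36 libraries with sex, and 181 to 465 with each animal left out. The difference in haemoglobin share ran from -0.644 to 0.220 percentage points with each animal left out, and was positive without HT ZT07 replicate 4 (0.220) or HT ZT16 replicate 2 (0.186).

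Of the 131 named genes past the test none changed sign under any alternative run, and 125 passed with any 1 animal left out. In the fit of 36 libraries 121 passed, and 118 with sex as a term. Without HT ZT07 replicates 1 and 2, 67 passed. Of the clock genes that did not pass, NFIL3 (log2 fold change 0.0106) and PER3 (0.00564) changed sign without HT ZT07 replicates 1 and 2. Leaving out 1 animal gave -0.0634 to 0.00543 for CSNK1D and -0.449 to 0.0603 for PER3, both positive without HT ZT07 replicate 2, and -0.0491 to 0.307 for NPAS2, negative without HT ZT16 replicate 2. With the replicate number as a block 1547 genes passed in HT animals and 374 differed between HT and NT. The numbers were not taken as pairs: deviations from the group means correlated at 0.153, 0.0203, 0.0403 and -0.0407, and 2 of 4 animals correlated best with their own number.

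Even numbers made up 65.89% of the counts from 1 to 49, so low counts may not each be separate fragments. With all counts halved, 1784 genes passed.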
